A study of Homo sapiens with 6 samples.

Results

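The clustered histone genes are mainly replication-dependent genes for the core histones H2A, H2B, H3 and H4 and the linker histone H1. They were chosen as every symbol that starts with HIST1H, HIST2H, HIST3H or HIST4H, without names that end in PS and a number, which mark pseudogenes. The rule found 72 genes among the 24462 gene symbols counted, and it used no measured value. Of these, 55 belong to the HIST1 cluster, 13 to HIST2, 3 to HIST3 and 1 to HIST4. By the class in their names, 6 are H1 genes, 17 H2A, 20 H2B, 14 H3 and 15 H4, and 2 of the H2B genes, HIST2H2BA and HIST2H2BC, are annotated pseudogenes.

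RNA-seq counts came from 6 libraries of PC3, a human prostate cancer cell line that was established from a metastasis in bone. In 3 libraries (si-Control) the cells received a non-targeting siRNA and in 3 (si-CITED2) siRNAs against CITED2, a transcriptional coregulator that binds p300 and CBP. Both groups were transfected at 80 nM, and per the study's methods cells were taken 72 h later. All libraries came from 1 cell line in RPMI1640 with FBS and were made from Trizol-extracted total RNA with a SMARTer mRNA-seq kit. The study describes the RNA-seq as 3 independent experiments, whereas the sample labels do not say which cultures were separate, and p-values measure the spread between these samples.

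CITED2 itself was counted first, as a check of the labels. Its TMM-normalized counts (raw counts scaled to a library of average size) were 859, 892 and 773 in si-Control against 1084, 921 and 984 in si-CITED2. Every library labelled si-CITED2 exceeded every si-Control library, with a log2 fold change of 0.24 (SE 0.0745, edgeR adjusted p 0.0363). The mRNA of the targeted gene was therefore not lower in the libraries labelled as its knockdown, and every direction given here is that of the labels. The study checked the knockdown on protein, by immunoblot of CITED2, whereas these counts are of mRNA. The CITED2 call was lost without TMM scaling (log2 fold change 0.22, edgeR adjusted p 0.0518). It was also lost without si-Control 1 or 3 or si-CITED2 1 or 3, where the log2 fold change lay between 0.17 and 0.25. Library totals ran from 19494137 to 28911542 counts, so that 3 counts stand for 0.104 to 0.154 counts per 1000000 (CPM). The epithelial genes EPCAM, KRT8, KRT18, KRT19 and CDH1 were all abundant, with 1735 to 21687 counts each. They differed between the groups in both directions: CDH1 (log2 fold change -0.52, edgeR adjusted p 1.67e-05) and EPCAM (-0.33, edgeR adjusted p 0.00110) were lower in si-CITED2, KRT8 (0.24, edgeR adjusted p 0.00260) and KRT18 (0.18, edgeR adjusted p 0.0267) higher, and KRT19 (0.08) did not pass the test. The KRT18 call was lost without si-Control 2, si-Control 3 or si-CITED2 1 (edgeR adjusted p 0.145, 0.0514 and 0.110). In the study's RT-qPCR and immunoblots CITED2 decreased epithelial markers, with E-cadherin (CDH1) mRNA among those measured. The lower CDH1 and EPCAM counts in si-CITED2 run the other way, and the higher KRT8 and KRT18 counts do not. The reason was not tested. The part of the epithelial genes in the histone results was not tested. The prostate luminal gene KLK3 had at most 2 counts in a library. Of 7 markers of blood, endothelium and liver, HBB differed with 0 counts in each si-Control library and 20, 32 and 20 in si-CITED2. Summed over the 7 markers the level was 0.554 to 0.726 CPM in si-Control and 1.74 to 2.01 CPM in si-CITED2. The part of HBB in the histone results was not tested.

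Most clustered histone genes are transcribed mainly in S phase, when new DNA has to be packed into nucleosomes. Their mRNAs usually have no introns and end in a conserved stem-loop in place of a poly(A) tail. The stem-loop binding protein SLBP holds this structure and is needed for 3′ end processing, translation and regulated decay. Some clustered genes can also give polyadenylated mRNAs from a downstream site. Kits that prime on poly(A) tails count both forms unequally. Whether these libraries were selected or primed on poly(A) is not given in the sources used here.

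The stem-loop letters are shown here because they are the shared 3′ feature of the class and because the annotation holds them for fewer than all members. The motif searched was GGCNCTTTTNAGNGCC, on the sense strand of every GENCODE 29 transcript. It occurred in 58 of 206694 transcripts (0.0281%). These belonged to 40 of 57133 gene names, and 34 of the 40 names start with HIST. Among the 72 members, 32 had it in an annotated transcript. They were 7 of the 17 H2A genes, 12 of the 20 H2B genes, 5 of the 14 H3 genes, 8 of the 15 H4 genes and none of the 6 H1 genes. For 34 of the other 40 members, every annotated coding transcript ended at the stop codon, so there was no downstream sequence to search. Where the distance could be measured, the motif began 22 to 67 bases after the stop codon, with a median of 36. The lines that follow give the motif in capitals with its 6 flanking bases on each side, in transcript direction.
HIST1H4I: taaaaaGGCCCTTTTTAGGGCCcctaag
HIST2H4A: cccaaaGGCCCTTTTTAGGGCCgaccac
HIST1H4H: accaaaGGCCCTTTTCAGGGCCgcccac
HIST2H2AA4: tcaaaaGGCTCTTTTCAGAGCCacccac
HIST1H2AC: cccaaaGGCTCTTTTCAGAGCCccccta
HIST2H2BE: tccaaaGGCTCTTTTCAGAGCCacccac
HIST2H3C: ccaaaaGGCTCTTTTCAGAGCCacccac
HIST1H2BD: cccaaaGGCTCTTTTAAGAGCCacgcat
HIST2H2BC: tccaaaGGCTCTTTTCAGGGCCatttaa

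The motifs lie, in GRCh38, at chr6:27139654-27139669 (+) for HIST1H4I, chr1:149833032-149833047 (+) for HIST2H4A, chr6:26285131-26285146 (-) for HIST1H4H, chr1:149851574-149851589 (+) for HIST2H2AA4 and chr6:26124669-26124684 (+) for HIST1H2AC. They lie at chr1:149886188-149886203 (-) for HIST2H2BE, chr1:149840692-149840707 (-) for HIST2H3C, chr6:26158587-26158602 (+) for HIST1H2BD and chr1:149850302-149850317 (-) for HIST2H2BC. Except in HIST2H2BC, an annotated transcribed pseudogene, each lies beyond the stop codon of a coding transcript, in its 3′ UTR. The letters divided the members by class. All 8 H4 motifs spelled GGCC on both arms of the stem, and all 24 H2A, H2B and H3 motifs opened with GGCT. The commonest form, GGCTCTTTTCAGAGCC, occurred in 17 members (6 H2A, 8 H2B and 3 H3). The form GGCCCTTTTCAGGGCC occurred in 5 H4 genes, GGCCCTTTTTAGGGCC in the 3 H4 genes HIST1H4I, HIST2H4A and HIST2H4B, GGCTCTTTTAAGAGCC in 3 H2B and 2 H3 genes, and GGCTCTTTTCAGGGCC in 1 H2A and 1 H2B gene. In 23 of the 32 members an annotated transcript ran more than 100 bases past the motif, as in HIST2H2BE (1729 bases), HIST2H3C (1154) and HIST1H4I (212). HIST2H2AA3 and HIST2H2AA4, by contrast, ended 35 bases beyond it.

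Most clustered histone genes were barely counted. Of the 72, 34 passed the filter on low counts (edgeR's filterByExpr) and 38 did not. Counts in every one of the 6 libraries were found for 51 genes. HIST1H2AA, HIST1H2BA, HIST1H3F, HIST1H4E, HIST1H4F and HIST1H4G had 0 counts in all 6 libraries, which allows up to 0.0212 CPM (3 counts over the 6 totals). The other 32 genes below the filter had at most 17 counts in a library. Their reads, with those of the 6 genes at 0, made up 1.45% of all reads of the members. The tested genes were 3 of 6 for H1, 10 of 17 for H2A, 11 of 20 for H2B, 4 of 14 for H3 and 6 of 15 for H4. By cluster, 23 of 55 HIST1 genes, 10 of 13 HIST2 genes and 1 of 3 HIST3 genes were tested, and the 1 HIST4 gene was not. No member filled more than 1 row of the count tables.

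A few genes took most of the reads. The 5 genes with most counts held 70.3% of the members' counts and the top 10 held 85.7%. HIST1H2BK, an H2B gene, led with 11830 counts over the 6 libraries, ahead of the H2A gene HIST2H2AA4 with 6047. These are read counts and are not divided by transcript length.

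**Figure D1:**
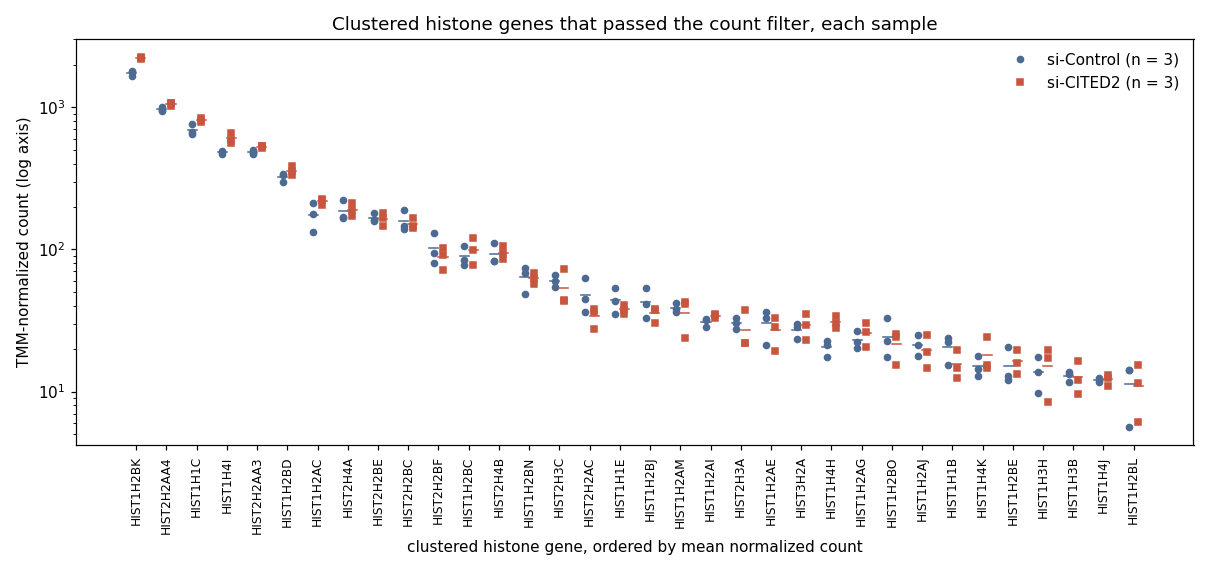
TMM-normalized counts (log axis) of the 34 clustered histone genes that passed the filter, ordered by their mean, with each si-Control (blue circles) and si-CITED2 (red squares) library as a point and lines at the group means (n = 3 each). Levels run from a mean of 2219 for HIST1H2BK in si-CITED2 to 5.64 to 15.3 for HIST1H2BL, where the points of both groups interleave.

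Near-identical copies set a limit on counting single genes. HIST2H2AA3 and HIST2H2AA4 have the same coding sequence over all 390 bases, HIST2H4A and HIST2H4B over all 309, and HIST2H3A and HIST2H3C over all 408. The counts of each pair stood close to 2 to 1 in every library. The ratio of HIST2H2AA4 to HIST2H2AA3 was 1.99 to 2.0, that of HIST2H4A to HIST2H4B 1.99 to 2.04 and that of HIST2H3C to HIST2H3A 1.94 to 2.0. The members of a pair were therefore not independent measurements, and how the reads were divided between copies was not tested. HIST1H4J and HIST1H4K also share their 309 coding bases. Of the pseudogenes, marked as such by both GENCODE and RefSeq, HIST2H2BC was among the 10 highest members.

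Against this background the comparison asked whether transfection with CITED2 siRNAs went with a change of the clustered histone mRNAs. In all, 3 genes were higher in the libraries labelled si-CITED2 and none was lower. They were the H2B gene HIST1H2BK, the H4 gene HIST1H4I and the linker histone gene HIST1H1C. Of the 34 tested members, 3 (8.82%) were higher at an edgeR adjusted p under 0.05, where 9.36% of all 16314 genes tested were. None was lower, where 8.09% of all genes were. At an unadjusted edgeR p under 0.05 the member counts were 5 higher and 0 lower. The share of all genes at that threshold was not counted. DESeq2 called 2 members higher and 0 lower, where over all genes tested it called 1401 higher and 1249 lower. At an edgeR adjusted p under 0.05 the share of members that rose was thus near that of all genes. In bulk RNA, more cells that express a gene and more RNA per cell cannot be told apart.

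HIST1H2BK (chr6:27146418-27146798 in GRCh38, minus strand) had normalized counts of 1801, 1785 and 1656 in si-Control against 2197, 2246 and 2213 in si-CITED2. The groups were far apart for this gene, with means of 1747 ± 79.6 and 2219 ± 25.3 (SD, n = 3). It rose 1.27-fold (95% interval 1.17 to 1.37), a log2 fold change of 0.34 (SE 0.0534, edgeR adjusted p 0.000217).

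HIST1H4I (chr6:27138588-27139881, plus strand), which carries the first stem-loop shown above, had 489.7, 485 and 472 in si-Control against 658, 589.5 and 563 in si-CITED2. The si-Control values lay close together and the si-CITED2 values spread more widely above them, with means of 482 ± 9.35 and 604 ± 49.0 (SD, n = 3). It rose 1.25-fold (95% interval 1.11 to 1.40), a log2 fold change of 0.32 (SE 0.0790, edgeR adjusted p 0.00910).

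HIST1H1C (chr6:26055787-26056428, minus strand), which encodes the linker histone H1.2, had 763, 665 and 651 in si-Control against 844, 786 and 815 in si-CITED2. The groups did not overlap, but si-Control 1 lay nearer to the lowest si-CITED2 value than to the other si-Control values. The means were 693 ± 61.4 and 815 ± 28.8 (SD, n = 3), a rise of 1.17-fold (95% interval 1.05 to 1.31) with a log2 fold change of 0.23 (SE 0.0736, edgeR adjusted p 0.0395). This call was fragile. It was lost under DESeq2 (adjusted p 0.0505), without TMM (edgeR adjusted p 0.0515) and on leaving out any 1 library except si-Control 1 (edgeR adjusted p 0.0737 to 0.156).

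Among the 10 members with the highest counts, 7 did not pass the test. HIST2H2AA4, an H2A gene, had 1006, 953 and 938 in si-Control against 1067, 1029 and 1071 in si-CITED2. Its copy HIST2H2AA3 had 503, 479 and 468 in si-Control against 534, 517 and 535 in si-CITED2. In both genes the groups did not overlap, but the log2 fold changes of 0.13 and 0.13 missed the threshold (edgeR adjusted p 0.172 and 0.292), with 95% intervals of 0.000270 to 0.25 and -0.03 to 0.29. HIST1H2BD (H2B) had 299, 341 and 334 in si-Control against 331, 358 and 388 in si-CITED2, with a log2 fold change of 0.15 and overlapping groups. HIST1H2AC (H2A) had 213, 178 and 133 in si-Control against 227, 223 and 207 in si-CITED2. Its log2 fold change was 0.31 (SE 0.15, edgeR adjusted p 0.167), and si-Control 1 lay within the si-CITED2 range. Without si-Control 1 the log2 fold change of HIST1H2AC was 0.48 (edgeR adjusted p 0.0369).

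The remaining high members showed little difference of their means. HIST2H4A (H4) had 223, 169 and 167 in si-Control against 188, 171 and 213 in si-CITED2, with a log2 fold change of 0.03 (95% interval -0.27 to 0.32). HIST2H2BE, an H2B gene, had 179.5, 158 and 162 in si-Control against 146, 166 and 181 in si-CITED2, with a log2 fold change of -0.02 (-0.29 to 0.26). The pseudogene HIST2H2BC had 146, 139 and 191 in si-Control against 146, 167 and 142 in si-CITED2, with a log2 fold change of -0.05 (-0.36 to 0.26). In all 3 genes the groups overlapped, and the intervals still allow a change of up to about 0.322 upward or -0.356 downward on the log2 scale.

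Over all 34 tested members the median log2 fold change was 0.02, against -0.0014 for all genes tested, with 19 members above 0 and 15 below. The 10 members with a mean normalized count of at least 100 had a median of 0.14 (8 above 0) and SEs of 0.05 to 0.15. The 24 below 100 had a median of -0.02 (11 above 0) and SEs of 0.17 to 0.46. The difference between these groups of genes was not tested. The 31 members that did not pass ranged from -0.49 for HIST2H2AC to 0.57 for HIST1H4H. HIST1H4H, an H4 gene, had 21.3, 22.5 and 17.6 in si-Control against 27.9, 30.6 and 34.0 in si-CITED2, so its groups did not overlap, with a 95% interval of -0.01 to 1.16 (edgeR adjusted p 0.182). Changes of the size of HIST1H2BK were not detectable in such low genes at these counts, where an interval reached as far as -1.11 (HIST1H1B).

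**Figure D2:**
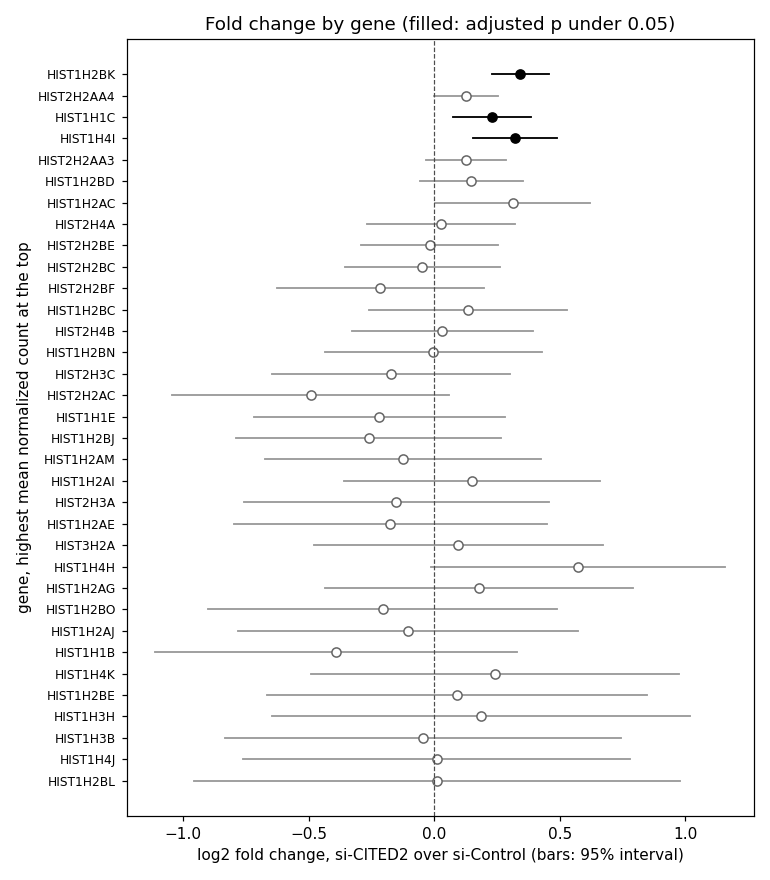
Log2 fold change of si-CITED2 over si-Control (horizontal axis) with its 95% interval for the 34 tested members, ordered from the highest mean count at the top, with filled points for an edgeR adjusted p under 0.05. HIST1H2BK, HIST1H1C and HIST1H4I are filled and lie to the right of 0, and the intervals widen down the plot as counts fall.

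In 7 of the 34 tested members each si-CITED2 value exceeded each si-Control value, where 16.4% of all genes tested did so. In 0 members did the reverse hold, where it held for 16.1% of all genes. Besides the 3 called genes, these were HIST2H2AA4, HIST2H2AA3, HIST1H4H and HIST1H2AI, and HIST2H2AA4 and HIST2H2AA3 are a pair with counts at 2 to 1. With 1 gene of each near-identical pair, an alternative chosen after the data were seen, 31 members were tested, with 3 higher and 0 lower.

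Summed over all 72 genes, the members took 287, 267 and 262 CPM in si-Control and 306, 300.002 and 313 CPM in si-CITED2. Means were 272 ± 13.1 and 306 ± 6.56 CPM (SD, n = 3), a ratio of 1.13, and the groups did not overlap. Without HIST1H2BK the ratio was 1.08 and the groups overlapped, with si-Control 1 above si-CITED2 2. No p is given for sums over chosen genes. H2B reads went from 118 ± 3.17 to 137 ± 3.28 CPM (ratio 1.16) and H4 reads from 35.2 ± 2.37 to 40.5 ± 1.99 CPM (ratio 1.15), both without overlap. H1 reads went from 32.4 ± 2.89 to 36.7 ± 1.38 CPM (ratio 1.13) and H2A reads from 80.3 ± 4.82 to 86.2 ± 1.51 CPM (ratio 1.07), both with overlapping groups. H3 reads, at 5.86 ± 0.49 and 5.79 ± 1.62 CPM, had a ratio of 0.989. In 3 classes the ratio rested on the gene with most counts. Without HIST1H1C the H1 ratio was 0.822, without HIST1H2BK the H2B ratio was 0.996, and without HIST1H4I the H4 ratio was 1.03. By cluster the ratio was 1.18 for HIST1 (172 ± 8.33 to 203 ± 2.77 CPM), which holds the 3 called genes (1.13 without HIST1H2BK), and 1.03 for HIST2 (98.8 ± 5.26 to 102 ± 3.86 CPM).

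**Figure D3:**
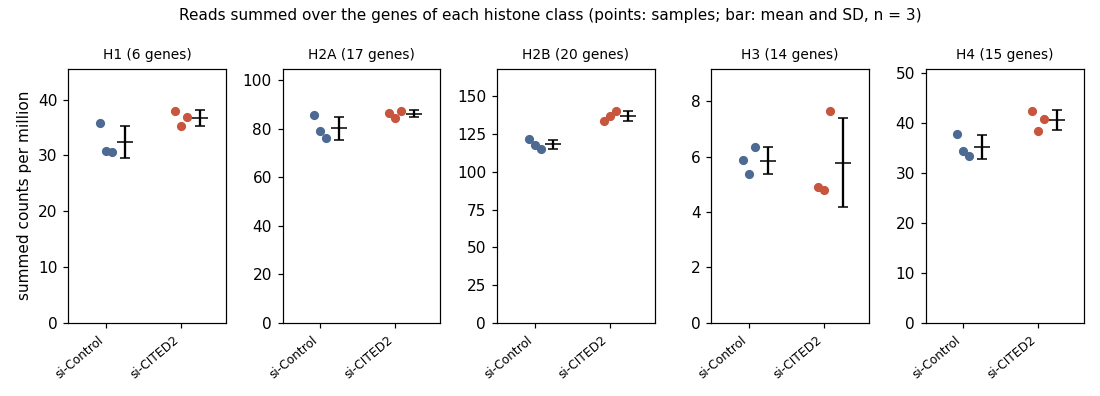
Reads summed over the 6 H1, 17 H2A, 20 H2B, 14 H3 and 15 H4 genes, in CPM on axes that start at 0, with each library as a point and the mean ± SD (n = 3) as a bar. For H2B and H4 the si-CITED2 points lie above those of si-Control, and for H1, H2A and H3 the groups overlap.

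Genes that rose were found both with and without an annotated stem-loop. Of the 23 tested members with the motif, 1 (HIST1H4I) was higher, 16 had a log2 fold change above 0 and the median was 0.09. Of the 11 without it, 2 (HIST1H2BK and HIST1H1C) were higher, 3 were above 0 and the median was -0.12. The annotation of both HIST1H2BK and HIST1H1C ends at the stop codon, so their lack of the motif says nothing of their mRNA. The difference between the groups of genes was not tested.

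Many H2A and H2B genes lie head to head and share the DNA between their starts. In GENCODE 29, 12 such pairs lay within 1000 bases, with 123 to 330 bases between them, and both genes were tested in 6. The signs of the log2 fold changes were the same in 4 pairs. For each pair the normalized counts stand in parentheses and the log2 fold change follows. HIST1H2BC (106, 78.1 and 84.7 in si-Control against 99.6, 77.4 and 119 in si-CITED2) and its partner HIST1H2AC had 0.14 and 0.31. HIST1H2AM (41.8, 37.8 and 36.5 in si-Control against 41.3, 23.9 and 42.7 in si-CITED2) had -0.12. Its partner HIST1H2BO (32.9, 22.5 and 17.6 in si-Control against 25.5, 15.3 and 24.1 in si-CITED2) had -0.21. Both of these were low genes whose groups overlapped.

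HIST1H2BL (14.2, 5.64 and 14.1 in si-Control against 6.07, 11.5 and 15.3 in si-CITED2) had 0.01. Its partner HIST1H2AI (28.4, 32.2 and 31.8 in si-Control against 35.2, 34.4 and 32.9 in si-CITED2) had 0.15. HIST2H2BE, given above, had -0.02 and its partner HIST2H2AC (63.1, 36.2 and 44.7 in si-Control against 36.4, 38.2 and 27.4 in si-CITED2) -0.49. HIST2H2AC had the lowest log2 fold change of the tested members, and its groups still overlapped. The signs differed in the pair HIST1H2BJ (53.3, 33.0 and 41.2 in si-Control against 37.6, 30.6 and 38.3 in si-CITED2, log2 fold change -0.26) and HIST1H2AG (26.7, 20.1 and 22.4 in si-Control against 20.6, 30.6 and 26.3 in si-CITED2, 0.18). They also differed for the pseudogene HIST2H2BC (-0.05) and HIST2H2AA4 (0.13). Of these 12 genes, none passed the test. The partner of HIST1H2BK, HIST1H2AH, 330 bases away, had 36 counts over the 6 libraries against 11830 and was not tested.

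Histone promoters are known for a TATA box, CCAAT boxes and, in H2B genes, an octamer bound by OCT1 (POU2F1). RefSeq promoters in GRCh38.p14, from 250 bases before to 50 after the start, were matched for 65 of the 72 members. Each motif was searched on both strands among all 35116 promoters. The octamer ATTTGCAT occurred in 26 of the 65 (40%) and in 1.77% of all promoters. It was found in 14 of 18 H2B and 11 of 16 H2A promoters, in 1 of 12 for H3 and in none of 6 for H1 and 13 for H4. CCAAT occurred in 84.6% of the members' promoters and 34.6% of all. It was present in every H1, H2A, H2B and H3 promoter searched but in 3 of 13 for H4. TATAAA occurred in 66.2% of the members' promoters and 11.5% of all. Head-to-head partners can share part of the searched stretch, so that 1 match can count for both genes. A match is a description of letters and not of binding.

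The promoters of the 3 genes that were higher are shown over 200 bases, from 150 before to 50 after the RefSeq start, in transcript direction and with the letters of the 3 motifs in capitals on either strand. They lie at chr6:27146809-27147008 (minus strand) for HIST1H2BK, chr6:27139132-27139331 (plus strand) for HIST1H4I and chr6:26056421-26056620 (minus strand) for HIST1H1C.
HIST1H2BK: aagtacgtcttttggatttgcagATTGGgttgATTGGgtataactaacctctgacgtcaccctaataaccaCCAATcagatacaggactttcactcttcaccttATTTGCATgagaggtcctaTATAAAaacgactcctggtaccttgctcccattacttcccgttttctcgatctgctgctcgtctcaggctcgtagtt
HIST1H4I: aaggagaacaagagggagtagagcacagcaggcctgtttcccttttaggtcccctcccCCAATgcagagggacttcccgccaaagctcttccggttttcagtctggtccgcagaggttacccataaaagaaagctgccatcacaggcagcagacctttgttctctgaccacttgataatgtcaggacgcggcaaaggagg
HIST1H1C: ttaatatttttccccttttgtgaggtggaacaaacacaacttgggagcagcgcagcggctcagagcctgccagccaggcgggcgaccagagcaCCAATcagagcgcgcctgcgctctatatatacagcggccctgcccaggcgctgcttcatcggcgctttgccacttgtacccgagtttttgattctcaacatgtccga

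In the HIST1H2BK promoter the TATA letters began 27 bases before the start, the octamer 46 and the nearest CCAAT 79, with further CCAAT letters on the opposite strand at 118 and 127. The HIST1H4I promoter held 1 CCAAT at 92 bases before the start and the HIST1H1C promoter 1 at 57. Neither held TATAAA or the octamer in this window. HIST1H4I is thus 1 of the 3 H4 promoters with a CCAAT.

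The clustered genes were then set beside 4 lists of genes tied to histone supply and S phase, chosen with earlier results of these data known. The list of replication-independent histone variants, most of which are polyadenylated and made outside S phase as well, held 12 tested genes. Of these, 2 were lower and 1 higher (8.09% and 9.36% of all genes tested), with a median log2 fold change of -0.05. Whether each is independent of the cell cycle in these cells was not tested. H2AFX, the variant phosphorylated at DNA breaks, fell from 1059 ± 26.2 to 774 ± 38.4 normalized counts (SD, n = 3), a log2 fold change of -0.45 (edgeR adjusted p 8.21e-05). CENPA, the centromeric H3, fell with a log2 fold change of -0.34 (edgeR adjusted p 0.00102). H3F3A, which encodes H3.3, rose with a log2 fold change of 0.19 (edgeR adjusted p 0.0436), a call lost without TMM and on leaving out any 1 library except si-Control 1. H3F3B, the other H3.3 gene, had a log2 fold change of 0.08 and H2AFZ one of -0.10, neither past the test.

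Of 28 tested factors of histone mRNA transcription, processing and decay, 3 were lower (8.09% of all genes tested) and 1 higher (9.36%), with a median of -0.05. SLBP, which binds the stem-loop, had 4137, 4012 and 4081 in si-Control against 3449.7, 3676 and 3607 in si-CITED2. All si-CITED2 values of SLBP lay below all si-Control values, and it fell with a log2 fold change of -0.19 (SE 0.0479, edgeR adjusted p 0.0114). SRRT, a partner of the cap-binding complex, fell with a log2 fold change of -0.26 and E2F1, an activator of S phase genes, with -0.31. The E2F1 call was lost without si-CITED2 2 (log2 fold change -0.28, edgeR adjusted p 0.0595). CCNE1, the cyclin whose kinase CDK2 phosphorylates NPAT, rose from 579.9 ± 16.7 to 983 ± 79.2 (SD, n = 3), a log2 fold change of 0.76 (edgeR adjusted p 9.26e-07). NPAT, the coactivator of clustered histone transcription, had a log2 fold change of 0.01 and POU2F1, named for its octamer, one of 0.05, neither past the test.

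Of 24 histone chaperones, 12 were lower (8.09% of all genes tested) and 0 higher (9.36%), with a median of -0.13. The centromeric chaperone HJURP (log2 fold change -0.52) fell, as did CHAF1A (-0.41), a subunit of the assembly factor CAF-1, TONSL (-0.39), ASF1B (-0.37) and the importin IPO4 (-0.28). NASP, which holds soluble H3 and H4, had a log2 fold change of -0.03 and did not pass. The number lower fell to 7 without si-Control 2 or 3 or si-CITED2 2 or 3. DNA replication genes, like the other lists chosen with earlier results known, mostly fell. Of 32, 29 were lower (8.09% of all genes tested) and 0 higher (9.36%), and all 32 had a log2 fold change below 0, with a median of -0.31. CDC45 of the replicative helicase fell with a log2 fold change of -0.66, the ribonucleotide reductase subunit RRM2 with -0.64, and the sliding clamp PCNA with -0.25 (edgeR adjusted p 0.00546). MCM10 (-0.49), RFC3 (-0.46), LIG1 (-0.45) and GINS4 (-0.44) fell as well. MCM2 (log2 fold change -0.36, lower) is in both the chaperone and the replication list. The tested clustered histone genes, with 0 of 34 lower, stood beside replication genes of which most were lower, but at unlike precision. SEs ran from 0.047 (RRM2) to 0.093 (GINS3) for the replication genes. For 24 of the 34 histone genes they ran from 0.17 to 0.46, and for the 10 with most counts from 0.05 to 0.15. A fall of the size of the replication median could go uncalled in those 24. Among the 10, HIST1H2AC had a log2 fold change of 0.31 (SE 0.15) and was not called either. Histone mRNAs without a poly(A) tail may also have been counted unequally, as poly(A) selection of these libraries is not given in the sources used. The difference between the lists was not tested.

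**Figure D4:**
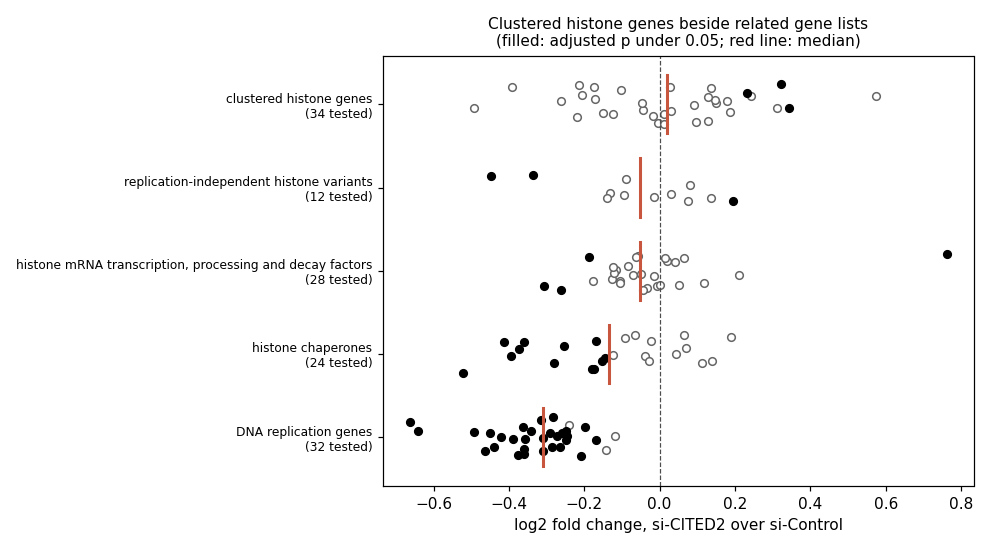
Log2 fold change of si-CITED2 over si-Control (horizontal axis) for each tested gene of the clustered histone genes and 4 related lists, with filled points for an edgeR adjusted p under 0.05 and a red line at each list's median. The DNA replication genes all lie left of 0, whereas the clustered histone genes spread on both sides around a median of 0.02. SEs, not drawn, were 0.17 to 0.46 for 24 of the clustered histone genes, larger than for any replication gene.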

How the data were processed

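The deposited files, 1 per library, hold the authors' raw read counts per gene symbol. The submitters' processing notes name TopHat, edgeR and hg19. The counter, its annotation and its treatment of multi-mapped reads are not given in the sources used here. Each file had 25737 rows. Repeated symbols were reduced to their row with most counts, which left out 1275 rows. Groups came from the sample labels.

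Counts were tested in R 4.3.3 with edgeR 4.0.16 (filterByExpr, TMM, quasi-likelihood test), si-CITED2 against si-Control, and p-values were adjusted by Benjamini-Hochberg over all 16314 genes tested. The common biological coefficient of variation was 0.0614. An exact permutation test of 3 against 3 cannot go below p = 0.1 and was not used. On simulated counts, 91 of 100 genes changed by a log2 value of 1 and 96 of 100 changed by 2 were recovered for this comparison, with 9 false calls among 16163 genes. The changed genes were drawn from those above a minimum mean count. Changes as small as those of the called members were not simulated. CPM are counts per 1000000 counts of the kept rows.

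Stem-loops and gene positions were read from GENCODE 29 (GRCh38) and promoters from RefSeq (GRCh38.p14). No hg19 coordinate is printed. The members and the other gene lists were chosen with earlier results of these data known. Values in each library are given for members that passed the test, the 10 with the highest mean and divergent pairs with both genes tested. HIST1H4H and HIST1H1B were singled out after their values were seen. From the other lists, the members named are from those with the largest changes past the test and the most characteristic ones. Floors and intervals cover counting and replicate error of these libraries.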

Additional observations from a re-analysis of the deposited data

How the results depend on the processing

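Across the alternatives the number of clustered histone genes that were higher was 2 to 4 and the number lower 0, and their median log2 fold change lay between -0.0589 and 0.085. The alternatives were summed rows of a symbol, no TMM, DESeq2 size factors, DESeq2 1.42.0, other filters, a replicate block and leaving out each library. Of 249 refits of 18 members (those that passed the test, the 10 highest and the divergent pairs), 241 stayed on the same side of the threshold. Of the other 8, 7 concerned HIST1H1C and 1 HIST1H2AC, as described. HIST1H4H and HIST1H1B were not among the 18. Without TMM, CITED2 had 0.22 and the histone variants had 0 genes higher in place of 1. Leaving out 1 library gave 0.17 to 0.29 for CITED2, 0 to 1 variants higher, 7 to 10 chaperones lower (12 with all libraries) and 0 to 1 higher. The ratio without the gene with most counts was 0.822 for H1, 0.996 for H2B and 1.03 for H4. Causes were not tested. Same-numbered libraries did not deviate together (correlations of -0.038, 0.0336 and -0.0109), so no pairing by replicate number was seen. Such correlations cannot show whether same-numbered libraries were prepared together. The fit with a replicate block gave 3 members higher and 0 lower and, over all genes, 1405 higher and 1154 lower in place of 1527 and 1319. Low counts limit the 38 genes below the filter and the 24 tested genes under 100 normalized counts. The reason for the low counts was not tested.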
